A study of Mus musculus with 11 samples.

Results

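The genes described here encode the proteasome, its activators, its inhibitor and its assembly chaperones. Members were all genes whose single annotated symbol began with Psma, Psmb, Psmc, Psmd, Psme, Psmf or Psmg followed by a digit, which gave 49 of the 20352 genes measured. They comprised 14 subunits of the 20S core particle, 9 subunits of the base and 8 of the lid of the 19S regulatory particle, 5 immune genes, 2 tissue-restricted core subunits, 3 further activators and inhibitors and 7 assembly chaperones. The remaining member, Psmc3ip, was matched by its symbol only, since it encodes a meiotic recombination factor and not a proteasome protein.

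Expression was measured on 11 whole-transcript mouse arrays, 5 hybridised with keratoacanthoma and 6 with normal skin. Keratoacanthomas are squamous tumours of the skin, and all 5 arose in mice carrying both the K14-Cre and the Zmiz1 transgene. Normal skins 1 and 2 also came from such double transgenic mice, normal skins 3 and 4 from single transgenic mice with K14-Cre alone and normal skins 5 and 6 from those with the Zmiz1 transgene alone. K14-Cre expresses Cre recombinase from the promoter of keratin 14, a keratin of basal keratinocytes, and Zmiz1 encodes a co-activator of transcription. Whether each piece was taken from another animal is not given, so p-values here cover only the spread between arrays, which may be technical.

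The 26S proteasome degrades proteins tagged with ubiquitin. Its 20S core is a stack of rings in which alpha subunits form the gates and beta subunits the catalytic chamber, and the 19S particle recognises, unfolds and feeds in the substrates, with ATPases in its base and a deubiquitinase in its lid. Interferons induce alternative catalytic subunits and the PA28 activator, which shape the peptides shown on MHC class I, and loss of proteasome activity is known to raise the constitutive subunit genes together through the transcription factor Nfe2l1.

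Promoter sequences are shown because the constitutive genes moved in one direction as a group, and because the factors bound to such letters are among the regulators measured below. RefSeq promoter sequences (build GRCm38.p6) were at hand for 41 of the 49 members, and the 250 bases before the start were searched on both strands for 7 motifs. Windows on the gene's strand, with 15 bases on either side where the promoter reached that far, are given 5′ to 3′ with the motif in capitals. The first 3 hold the antioxidant response element TGACNNNGC, the letters bound by Nfe2l1 and Nfe2l2, in genes of the core and of base assembly (Psmb5 at chr14:54618019-54618057 on the minus strand, Psmb6 at chr11:70525333-70525356 and Psmd9 at chr5:123228144-123228182, both on the plus strand).
Psmb5: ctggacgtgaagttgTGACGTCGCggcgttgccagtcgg
Psmb6: gcggactaaagagagTGACGGAGC
Psmd9: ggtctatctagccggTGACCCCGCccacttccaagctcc
The next 4 hold the Ets core CCGGAAG or its complement, the most frequent of the 7 motifs relative to all promoters, in the leading genes of assembly, lid and activators and in Psmd2 of the base (Psmg1 at chr16:95991008-95991044 on the minus strand, Psmd12 at chr11:107479496-107479527, Psme3 at chr11:101316091-101316127 and Psmd2 at chr16:20651611-20651647, all on the plus strand).
Psmg1: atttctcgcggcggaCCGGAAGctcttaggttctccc
Psmd12: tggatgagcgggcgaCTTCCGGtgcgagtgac
Psme3: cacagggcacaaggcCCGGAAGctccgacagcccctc
Psmd2: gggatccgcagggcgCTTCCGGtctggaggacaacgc
The last is the gamma-interferon activated site TTCNNNGAA of the immune gene Psmb8, at chr17:34198083-34198121 on the plus strand.
Psmb8: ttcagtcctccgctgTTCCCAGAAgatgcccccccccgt

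The Ets core stood in 13 of the 41 promoters (31.7%), against 7.83% of all 27025 promoters and 10.8% of the 15761 promoters of measured genes. Its holders were spread over the classes, with Psma6 in the core, Psmc1, Psmc2, Psmc6, Psmd2 and Psmd4 in the base and Psmd6, Psmd11 and Psmd12 in the lid, beside Psme3, Psme4, Psmg1 and Psmc3ip. The antioxidant response element stood in 5 promoters (12.2%, against 12.7% of those of measured genes), namely Psmb5, Psmb6, Psmc6, Psmd9 and Psmd12. Among the interferon motifs, the activated site stood in Psmb8 and Psmg1 (4.88% against 7.66%), and the interferon-stimulated response element in Psmb3, Psmd4 and Psmd9 (7.32% against 3.39%). The CCAAT box stood in 15 (36.6% against 39.0%), the nuclear respiratory factor 1 site in Psma2 alone (2.44% against 1.30%), and the YY1 site AAGATGGC in 0 against 1.85%. Apart from the short CCAAT box, whose positions were not compared, no matches of different motifs overlapped. These are matches of letters and show no binding.

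Proteasome genes were mostly higher in keratoacanthoma. Of the 49 members, 33 were higher (limma, Benjamini-Hochberg adjusted p below 0.05 over all genes), 0 were lower and 16 did not pass. Among all genes 14.5% were higher and 10.8% lower. The median member stood 1.46-fold higher, at a log2 difference of 0.54, where the median of all genes was -0.04. In 24 members all 5 tumours lay above all 6 skins, which was so for 9.66% of all genes. Constitutive subunits of the 26S particle, from core, base and lid together, gave 26 of the 33, out of 31 such members, and 19 of the 24. The single largest rise, 2.35-fold, belonged to the assembly chaperone Psmg1, and the smallest adjusted p (8.3e-05) to the lid subunit Psmd12.

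This count varied with array scaling and with the skins used as reference. When gene values were quantile normalized, 21 members were higher, where 11.8% of all genes were. With only the 2 double transgenic skins as reference it was 21 too, where 9.54% of all genes were higher. That fit also left out the 4 single transgenic skins, so genotype and number of arrays cannot be told apart. The members that lost their call under quantile normalization were Psma3, Psma5, Psmb6, Psmb7, Psmc1, Psmd6, Psmd7, Psmd8, Psmd10, Psmd11, Psmd13 and Psme4. All of them still had a positive difference. In 6 members without a call (Psma4, Psmb1, Psmb9, Psmc3, Psmc6 and Psmg4) the difference turned slightly negative. With the mean over probesets as gene value, Psma4, Psma6, Psmb1 and Psmc6 passed, and Psmd8 and Psmd10 did not.

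**Figure D1:**
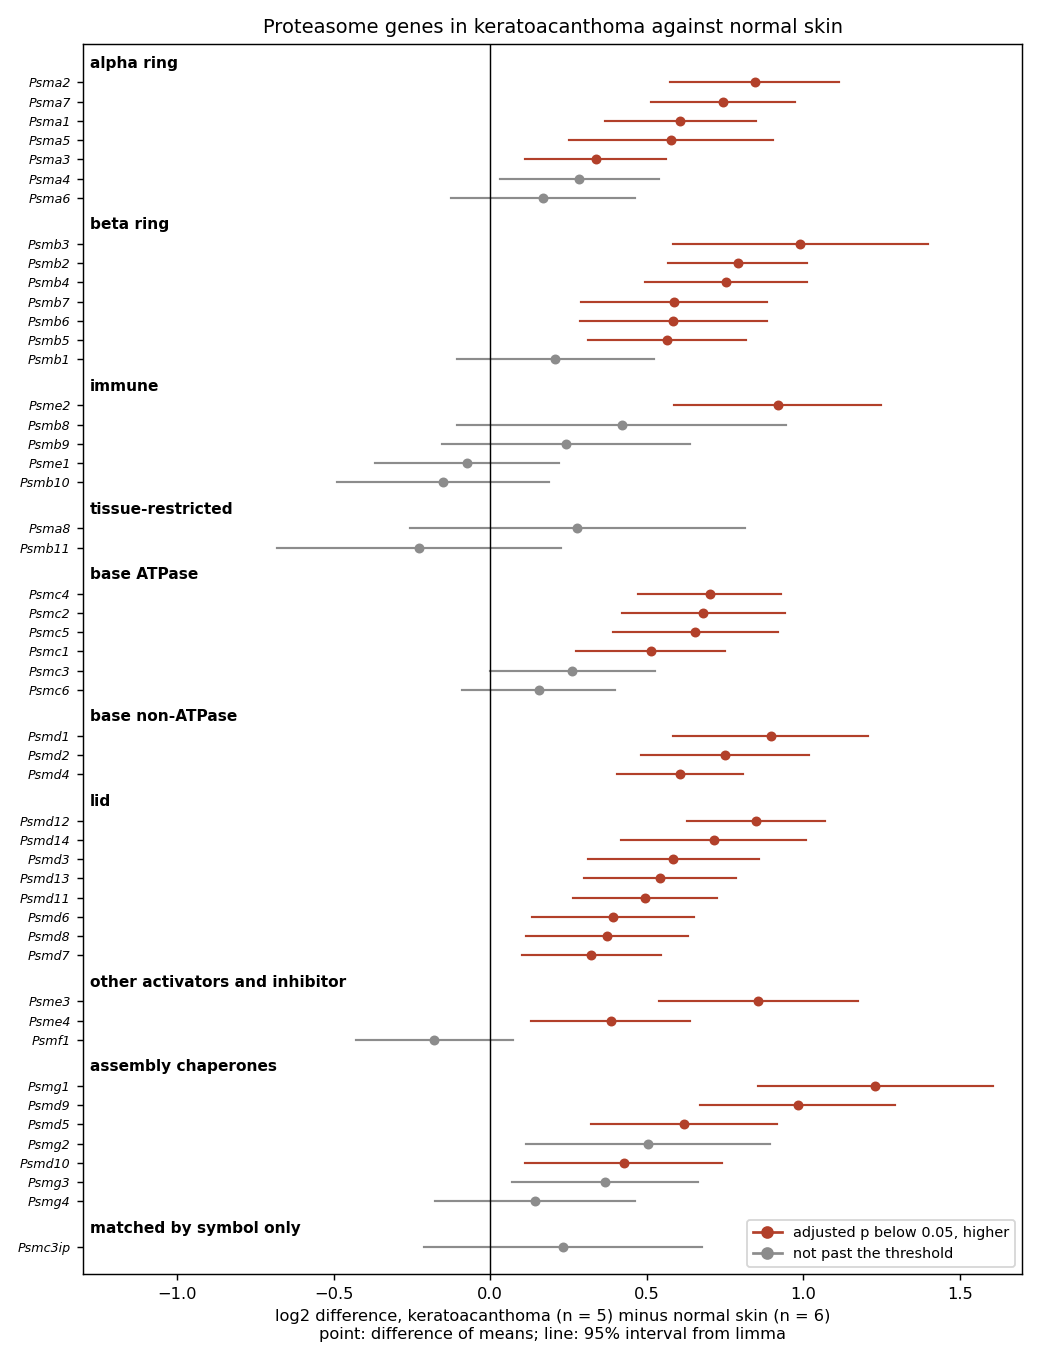
Log2 difference (keratoacanthoma minus normal skin, horizontal axis) of each of the 49 members, grouped by role, with the limma 95% interval. Red points mark the 33 members past the adjusted threshold, all to the right of 0, and grey points the other 16; 6 of the grey points turn to the left of 0 after quantile normalization.

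The pieces also differed in their make-up, and its part in the results was not tested. Levels given below are means over all measured markers of a type in an array, called or not. All 10 measured markers of skeletal muscle were lower in the tumours (mean log2 level 5.66 to 7.46, against 10.6 to 11.8 in skin), as were 5 of 6 markers of fat cells (6.10 to 7.41 against 8.15 to 9.33) and 4 of 6 of fibroblasts (7.30 to 8.60 against 8.89 to 9.71). Keratinocyte markers were present throughout and 4 of 8 were higher (10.8 to 10.9 against 9.70 to 10.3), and all 9 markers of dividing cells were higher (7.62 to 7.78 against 5.62 to 7.20). Of 15 leukocyte markers 3 were higher (Cxcr2, Csf3r and S100a8) and 3 were lower (Cd3g, Csf1r and Adgre1). The mean over all 15 was 6.30 to 7.03 in the tumours against 6.24 to 6.65 in skin. Hair keratins (0 of 8 called) were high in keratoacanthoma 4 (8.32), normal skin 1 (9.69) and normal skin 3 (9.36) and 5.98 to 6.24 elsewhere. Without those 3 arrays 29 members were higher, and the share of all genes in that fit is not given here. In such bulk samples fewer cells of a type and less RNA per cell cannot be told apart.

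In the alpha ring, which controls entry to the chamber, 5 of 7 genes rose and the other two did not pass. Psma2 rose most. It read 9.08, 9.50, 9.58, 9.53 and 9.65 in keratoacanthomas 1 to 5, and between 8.46 and 8.86 (median 8.60) in the 6 skins. Every tumour lay above every skin, although keratoacanthoma 1 sat well below the other tumours. Its difference on the log2 scale was 0.84 (SE 0.12, limma adjusted p = 0.00036), or 1.80-fold.

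Psma7 (1.68-fold), Psma1 (1.52-fold) and Psma5 (1.49-fold) followed, and Psma3 was 1.26-fold higher. Psma7 and Psma1 had groups that did not overlap, whereas normal skin 1 read 9.32 for Psma5, above 3 of the tumours. The call of Psma3 ended without keratoacanthoma 2, 3, 4 or 5 or normal skin 1 or 4, and with centring on the 75th percentile. Neither Psma4 (log2 difference 0.28, SE 0.12, limma adjusted p = 0.097) nor Psma6 (0.17, SE 0.14, adjusted p = 0.40) passed.

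The beta ring carries the 3 proteolytic activities, and 6 of its 7 genes rose. The structural subunit Psmb3 rose most in the core. Its values were 8.21, 8.98, 8.77, 9.06 and 9.09 in the tumours and 7.27 to 8.15 (median 7.96) in the skins. Keratoacanthoma 1 exceeded the highest skin by little, and the other tumours by far more. The difference was 0.99 (SE 0.19, limma adjusted p = 0.0019), or 1.99-fold, but it rested on 2 of the gene's 3 probesets (0.99 and 1.22), since the brightest of them read the same in both groups (-0.0038). Psmb2 (1.73-fold) and Psmb4 (1.68-fold), structural subunits too, rose without overlap. Psmb1, the last structural subunit, did not pass (0.21, SE 0.15, adjusted p = 0.33). Its tumours were tightly grouped at 9.14 to 9.30, inside the span of the skins of 8.57 to 9.39.

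All 3 constitutive catalytic subunits rose by close amounts. Psmb5, of the chymotrypsin-like site, read 10.18, 10.34, 10.36, 10.52 and 10.24 in the tumours and 9.51 to 10.04 (median 9.75) in the skins. The groups did not overlap, and the difference was 0.56 (SE 0.12, limma adjusted p = 0.0033), or 1.48-fold. For Psmb6, of the caspase-like site, tumours read 9.67, 10.01, 9.85, 10.04 and 10.23 and skins 9.02 to 9.69 (median 9.43). Only keratoacanthoma 1 fell within the range of the skins, and the difference was 0.58 (SE 0.14, adjusted p = 0.0074). Psmb7, of the trypsin-like site, stood at 9.45, 9.85, 9.63, 9.76 and 10.07 in the tumours and at 8.87 to 9.53 (median 9.15) in the skins. Again keratoacanthoma 1 alone was below the highest skin, and the difference was 0.59 (SE 0.14, adjusted p = 0.0073).

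The immune counterparts of these subunits did not pass. Psmb8, which replaces Psmb5, read 8.68, 9.39, 8.71, 9.09 and 8.55 in the tumours and 7.83 to 9.38 (median 8.40) in the skins. Normal skin 6 came close to the highest tumour, and the difference was 0.42 (SE 0.24, limma adjusted p = 0.24). Psmb9, which replaces Psmb6, read 9.34, 9.65, 9.48, 9.51 and 8.99 in the tumours and 8.63 to 9.79 (median 9.12) in the skins. Its highest value was again that of normal skin 6, and the difference was 0.24 (SE 0.18, adjusted p = 0.37), turning to -0.07 after quantile normalization. Psmb10, which replaces Psmb7, read 7.05, 7.13, 7.39, 6.92 and 6.97 in the tumours and 6.82 to 7.79 (median 7.19) in the skins. The tumours lay within the range of the skins, with a difference of -0.15 (SE 0.16, adjusted p = 0.53).

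**Figure D2:**
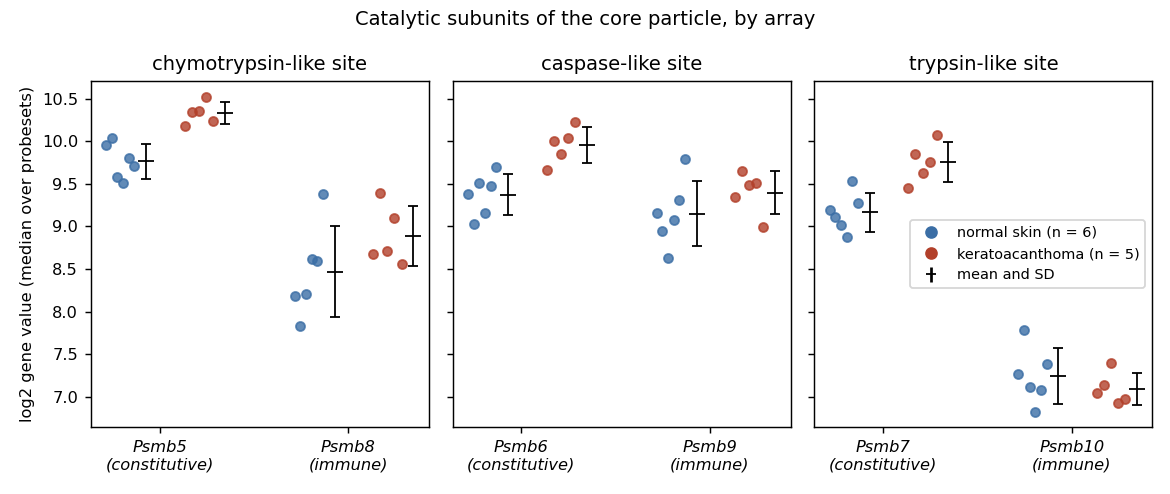
Log2 gene value (vertical axis) of the 3 constitutive catalytic subunits and their immune counterparts in each array, blue for normal skin and red for keratoacanthoma, with mean and SD beside each group. Psmb5, Psmb6 and Psmb7 sit 0.56 to 0.59 higher in the tumours while the immune subunits overlap between groups; heights of different genes are not comparable.

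Whether the immune and the constitutive subunit of a pair changed unequally was tested directly for the 3 pairs, on the immune minus the constitutive value in each array (exact two-sided permutation test, smallest possible p 0.0043, adjusted over the 3 pairs). For the trypsin-like site the change of Psmb10 was smaller than that of Psmb7 by 0.74 on the log2 scale. The per-array difference was -2.40, -2.72, -2.24, -2.83 and -3.10 in the tumours and -2.45 to -1.32 in the skins, with 3 of 5 tumours below the lowest skin. The contrast of -0.74 had a 95% interval of -1.22 to -0.25 (exact permutation p = 0.013, adjusted p = 0.039). It kept its sign but not its call when any 1 array other than normal skin 3 or 5 was left out (adjusted p 0.057 to 0.086), after quantile normalization (-0.57, adjusted p = 0.065) and against single transgenic skin (-0.585, adjusted p = 0.12). Against double transgenic skin it was -1.04, where 5 against 2 arrays cannot pass.

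Neither of the other pairs passed. Psmb9 changed by 0.34 less than Psmb6 (95% interval -0.83 to 0.15, exact permutation p = 0.17, adjusted p = 0.26), and passed without normal skin 3 (-0.47, adjusted p = 0.024). For Psmb8 against Psmb5 the contrast was -0.14 (95% interval -0.87 to 0.58, exact permutation p = 0.66, adjusted p = 0.66), an interval that reaches the size seen for Psmb10 on the negative side only. Its sign turned to 0.05 without normal skin 6 and to 0.55 with only the 2 double transgenic skins as reference.

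Among the PA28 genes the 2 subunits of the interferon-induced activator parted. Psme2, the beta subunit, was the one immune gene of 5 that rose. It read 8.74, 9.24, 8.67, 8.51 and 8.75 in the tumours and 7.49 to 8.22 (median 7.86) in the skins, without overlap. The difference was 0.92 (SE 0.15, limma adjusted p = 0.0008), or 1.89-fold. The 4 probesets of Psme2 ranged from 0.25 for the brightest to 1.03. A further probeset that names both Psme2 and the pseudogene Psme2b-ps, left out of the gene value, was higher by 0.49, and signal of the gene and its copy may be mixed on it. Psme1, the alpha subunit that assembles with it, did not pass (-0.08, SE 0.14, adjusted p = 0.73), with tumours at 9.81 to 10.26 and skins at 9.86 to 10.59. Psme1 turned to 0.0097 without normal skin 6. That the changes of Psme1 and Psme2 differed was not tested.

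Psme3, the nuclear PA28 gamma, which is no interferon-induced gene, read 8.91, 9.15, 8.98, 8.85 and 9.55 in the tumours and 7.80 to 8.40 (median 8.27) in the skins. The groups did not overlap. The difference was 0.86 (SE 0.15, limma adjusted p = 0.00095), or 1.81-fold, with 10 of 13 probesets called higher when tested alone. Psme4, the large activator PA200, was 1.31-fold higher (0.38, SE 0.12, adjusted p = 0.028), a call that ended without keratoacanthoma 2, 3 or 5 or normal skin 3 or 4. Psmf1, the inhibitor PI31, had a difference of -0.18 (SE 0.12, adjusted p = 0.30) and no tumour above the highest skin.

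In the 19S base, 4 of the 6 ATPases that unfold substrates and all 3 non-ATPase subunits rose. Psmc4 led the ATPases. It read 9.11, 9.05, 9.10, 9.09 and 9.02 in the tumours, a range far narrower than that of the skins (8.10 to 8.60, median 8.34). The groups did not overlap, and the difference was 0.70 (SE 0.11, limma adjusted p = 0.0004), or 1.63-fold. Psmc2 (1.60-fold), Psmc5 (1.57-fold) and Psmc1 (1.43-fold) rose without overlap too. Psmc3 (0.26, SE 0.12, adjusted p = 0.14) and Psmc6 (0.15, SE 0.11, adjusted p = 0.36) did not pass.

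Psmd1, the largest base subunit, read 9.47, 9.92, 9.97, 9.84 and 9.74 in the tumours and 8.47 to 9.15 (median 8.93) in the skins. All tumours exceeded all skins, and all 25 of its probesets had a positive difference. The gene's difference was 0.90 (SE 0.14, limma adjusted p = 0.00064), or 1.86-fold. Its scaffold partner Psmd2 was 1.68-fold and the ubiquitin receptor Psmd4 1.52-fold higher, again without overlap.

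Every one of the 8 lid genes among the members was higher, 5 of them without overlap. Psmd12 had the largest difference. Its values were 9.62, 9.73, 9.71, 9.61 and 9.97 in the tumours and 8.74 to 9.11 (median 8.85) in the skins, a wide gap. The difference was 0.85 (SE 0.10, limma adjusted p = 8.3e-05), or 1.80-fold. Psmd14, the deubiquitinase that removes ubiquitin chains from substrates, was 1.64-fold higher (adjusted p = 0.002). Psmd3 (1.50-fold), Psmd13 (1.46-fold), Psmd11 (1.41-fold), Psmd6 (1.31-fold), Psmd8 (1.29-fold) and Psmd7 (1.25-fold) completed the lid genes of the Psm series. The lid subunit Sem1, named outside that series, did not pass (0.03, SE 0.10, limma adjusted p = 0.84).

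The lid count was sensitive. Psmd6, Psmd7 and Psmd8, the members with the smallest rises, lost their calls without keratoacanthoma 2, 3 or 5 or normal skin 4, which left 5 of 8, and after quantile normalization 3 of 8 were higher.

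Assembly chaperones escort the ring and base intermediates and leave the finished particle. Psmg1, which pairs with Psmg2 to build the alpha ring, had the largest rise of all members. It read 8.52, 9.04, 9.15, 9.26 and 8.77 in the tumours and 7.34 to 8.17 (median 7.74) in the skins. No tumour overlapped the skins, and the difference was 1.23 (SE 0.17, limma adjusted p = 0.00026). Its partner Psmg2 read 6.54 to 7.50 in the tumours and 6.42 to 6.94 in the skins, with the difference of 0.50 just short of the threshold (SE 0.18, adjusted p = 0.057). Psmg3 (0.37, SE 0.14, adjusted p = 0.068) and Psmg4 (0.14, SE 0.15, adjusted p = 0.52), the other pair of alpha ring chaperones, did not pass.

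The 3 base chaperones among the members all passed, Psmd10 only narrowly. Psmd9 was 1.97-fold higher (0.98, SE 0.14, limma adjusted p = 0.00034), with tumours at 7.54 to 7.78 and skins at 6.18 to 7.11. Psmd5 was 1.53-fold and Psmd10, also known as gankyrin, 1.34-fold higher (adjusted p = 0.0052 and 0.047). Psmd10 lost its call when any 1 array other than keratoacanthoma 1 or normal skin 6 was left out, with the mean over probesets and with centring on the 75th percentile, and 0 of its 7 probesets passed alone.

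The 2 core subunits restricted to other tissues did not pass. Psma8, of the testis, had a mean value below the 25th percentile of probeset values, and its difference was 0.28 (SE 0.25, limma adjusted p = 0.45). Yet 1 of its 9 probesets rose by 2.42 (SE 0.40, limma adjusted p = 0.0018 over all probesets). Psmb11, of thymic epithelium, had a difference of -0.23 (SE 0.21, adjusted p = 0.47), with keratoacanthoma 3 far below the other tumours (4.28 against 5.33 to 5.72), and it turned to 0.03 without that array. Psmc3ip had 0.23 (SE 0.21, adjusted p = 0.45).

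**Figure D3:**
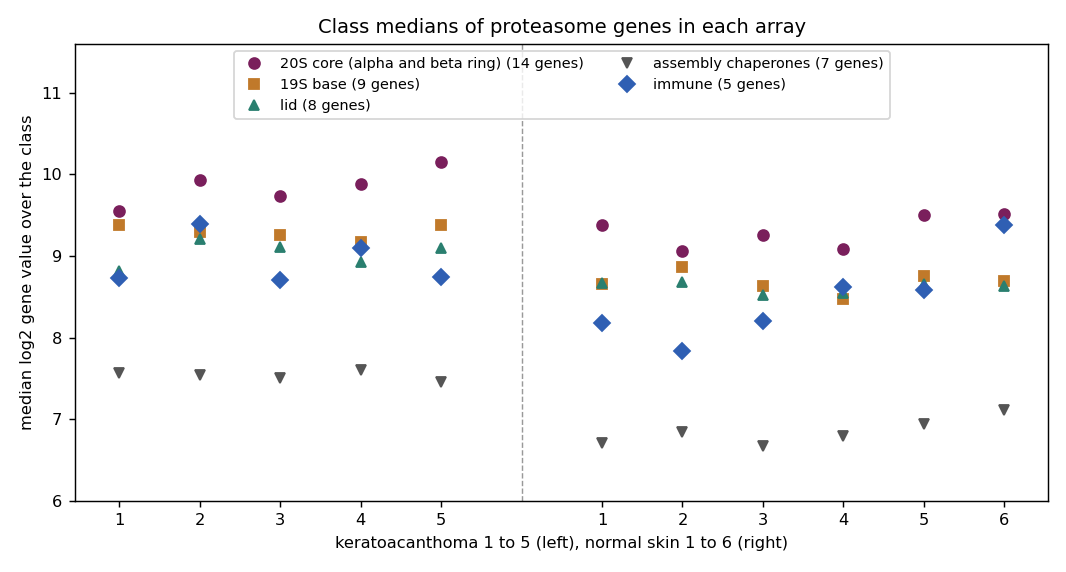
Median log2 gene value over the genes of a class (vertical axis) in each array, keratoacanthomas on the left and normal skins on the right of the dashed line. The classes of core, base, lid and assembly genes each sit higher in all 5 tumours than in all 6 skins, and the immune class overlaps; heights of different classes are not comparable.

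Class medians showed how the arrays themselves ranked. The median core gene read 9.56 to 10.15 in the tumours and 9.06 to 9.51 in the skins, lowest of the tumours in keratoacanthoma 1 and highest in keratoacanthoma 5. The lid followed the same split (8.81 to 9.21 against 8.52 to 8.69), with keratoacanthoma 1 again the lowest tumour. For the base the medians were 9.17 to 9.39 against 8.47 to 8.87, and here keratoacanthoma 1 was not low. The assembly class read 7.46 to 7.60 against 6.68 to 7.11. The immune class did not separate, with 8.71 to 9.39 in the tumours and 7.83 in normal skin 2 to 9.38 in normal skin 6.

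The rises were also seen in single probesets, of which the members had 496. Tested one by one, 164 were higher and 2 lower (limma, adjusted p below 0.05 over 211507 probesets, where 8.29% were higher and 6.98% lower). Constitutive 26S genes had 134 higher and 0 lower of 323, and the 5 immune genes 2 higher, both of Psme2, and 1 lower of 37. The lower ones were a probeset of Psmb10 (-0.71, SE 0.15, adjusted p = 0.0091) and a probeset of Psme4.

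Brightness went with the size of the difference. Among the constitutive probesets, 13 of 41 below a mean log2 value of 7, 59 of 113 from 7 to 9 and 61 of 136 from 9 to 11 were higher, but 1 of 33 at 11 or above. The median differences in these bands were 0.47, 0.57, 0.47 and 0.06, against -0.04, 0.01, 0.04 and -0.04 over all probesets. In Psmb3 and in Psme2 the brightest probeset showed the smallest difference. The share of all probesets called higher in each band is not given here, and what sets this pattern was not tested.

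**Figure D4:**
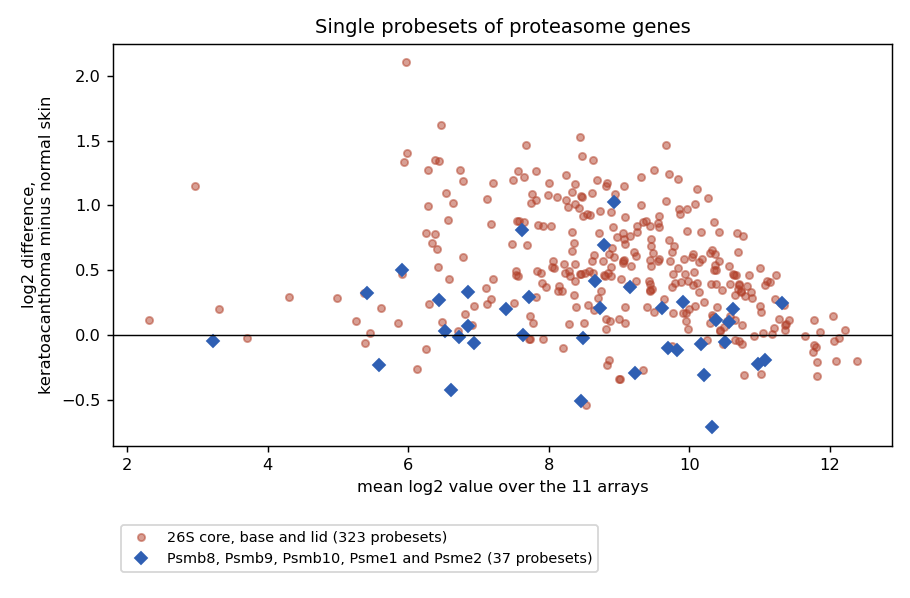
Log2 difference (keratoacanthoma minus normal skin, vertical axis) of single probesets against their mean log2 value over the 11 arrays, red for 26S core, base and lid genes and blue for the 5 immune genes. Most red points lie above 0 up to a value of 11 and near 0 beyond it, and the blue points lie on both sides of 0.

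All tumours carried both transgenes, so a contrast with the 2 normal skins of the same genotype held the genotype fixed. In it 23 members were higher and 0 lower (limma on 4 groups, adjusted p below 0.05, where 10.6% of all genes were higher and 6.93% lower). These tumours and skins are also part of the comparison above, so the values are a second view and not separate evidence. The core gave 8 of 14, the base 7 of 9, the lid 2 of 8 (Psmd12, 0.73, adjusted p = 0.0058, and Psmd14, 0.82, adjusted p = 0.017) and the assembly genes 3 of 7. Of the members, Psmd9 had the largest difference in this contrast (1.30, SE 0.15, adjusted p = 0.00051), followed by Psmg1 (1.15, SE 0.23, adjusted p = 0.0086). Psmb5 missed the threshold (0.33, SE 0.13, adjusted p = 0.096). Of the immune genes Psme2 (0.91, SE 0.20, adjusted p = 0.011) and Psmb8 (0.88, SE 0.27, adjusted p = 0.045) were higher, Psmb8 being lowest in normal skins 2 and 1 of all arrays.

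Between normal skin of double and of single transgenic mice (2 against 4 arrays) 0 members passed (limma, smallest adjusted p = 0.37, 8 at an unadjusted p below 0.05). Among all genes 0.0147% passed and 10.2% had an unadjusted p below 0.05. Differences ran from -0.69 for Psmb8 to 0.52 for Psmc3ip, with a median of 0.11. By unadjusted p the first were Psmd3 (0.43 higher in double transgenic skin) and Psmd9 (-0.48). An F test over the 3 normal genotypes also called 0 members (smallest adjusted p = 0.37, 7 at an unadjusted p below 0.05, where 0.00983% and 11.4% of all genes were).

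Part of the genes that work with the proteasome rose as well. Of 25 measured partners and regulators 14 were higher, 0 lower and 11 did not pass, with a median log2 difference of 0.41, where 14.5% of all genes were higher. With only the 2 double transgenic skins as reference 6 were higher, where 9.54% of all genes were. The ubiquitin-activating enzyme Uba6 rose by 1.14 (SE 0.19, limma adjusted p = 0.00081), and so did the deubiquitinases that bind the 19S particle beside Psmd14, Usp14 by 1.08 (SE 0.15, adjusted p = 0.00023) and Uchl5 by 0.92 (SE 0.09, adjusted p = 2.4e-05). Rad23b, which shuttles ubiquitinated substrates, rose by 1.03 (SE 0.15), Adrm1, the ubiquitin receptor that binds Uchl5, by 0.85 (SE 0.16) and Pomp, the chaperone that joins the half-formed core particles, by 0.55 (SE 0.11). Sem1, the small lid subunit named outside the Psm series, stood at 11.07 ± 0.14 (SD, n = 5) against 11.03 ± 0.09 (n = 6) and did not pass. The transcription factors Nfe2l1 and Nfe2l2 bind the antioxidant response element shown above for Psmb5, Psmb6 and Psmd9. Nfe2l2 was higher by 1.04 (SE 0.13, limma adjusted p = 0.0001) and Nfe2l1 differed by -0.23 (SE 0.22, adjusted p = 0.49). The element stood in 12.2% of the members' promoters against 12.7% of those of measured genes. Whether either factor had a part in the rises was not tested.

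The antigen presentation pathway takes up peptides made by the proteasome. Of 13 measured genes of this pathway 5 were higher and 0 lower (median 0.35), where 14.5% of all genes were higher and 10.8% lower. The 5 were the chaperones Canx (0.76) and Pdia3 (0.74), the class I heavy chains H2-K1 (0.73) and H2-D1 (0.60), and the peptide transporter subunit Tap1 (0.46). In H2-K1, Canx and Pdia3 all tumours lay above all skins, which was so for 9.66% of all genes. The other transporter subunit Tap2 (-0.13, SE 0.18, limma adjusted p = 0.63) and the class I light chain B2m (0.25, SE 0.13, adjusted p = 0.20) did not pass. After quantile normalization 3 of the 13 and 8 of the 25 partners were higher, where 11.8% of all genes were.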

How the data were processed

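The authors deposited log2 values of 241576 probesets for 11 arrays, made with RMA and Partek on genome build mm9, per the submitters' processing notes (versions and roles are not given in the sources used here). RMA corrects background, normalizes by quantiles and summarises probes. Array medians ran from 6.22 to 6.27, and the number of arrays limits the precision. The gene value was the median over probesets naming 1 gene (212097, with 590 identical ones dropped; 4475 named several genes and 25004 none). Symbols were updated through RefSeq (2742 changed, 17621 current, 53 as given). Members had 496 probesets, 21 of them below 4.96, the 25th percentile of all probesets, and 4 more that also named another gene were left out.

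limma 3.58.1 in R 4.3.3 gave the tests (lmFit and eBayes, Benjamini-Hochberg over all 20352 genes, intervals at 95%), Python 3.11.15, pandas 2.3.3, numpy 2.4.6, scipy 1.17.1 and matplotlib 3.10.9. The limma step was also run on simulated data with planted differences and independent noise, which checks the code and not the calls made here. The members, lists of partners, antigen presentation and cell markers, and tests were chosen with earlier results of these data known. For the 6 catalytic subunits and the largest rise of each class the text gives the value in every tumour and the range and median of the skins, and all members not past the threshold are named. Alternatives were the summary over probesets, dim or identical probesets, dim genes, array scaling, variance model, weights for arrays, a block for the number in the title, the reference and each array left out. Fits without 3 arrays high in hair keratins, and probesets tested singly, were added after seeing the data.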

Additional observations from a re-analysis of the deposited data

Results flagged for a closer look

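In 98 groups of a member's values, the highest or lowest value was compared with the rest by Dixon's criterion. Chance meets this criterion in about 1 of 20 groups, and 8 values met it here. Among the tumours these were Psma1 in keratoacanthoma 4 (10.02, below the others), Psma2 in keratoacanthoma 1 (9.08, below), Psmb11 in keratoacanthoma 3 (4.28, below) and Psmd3 in keratoacanthoma 1 (7.89, above). Among the skins they were Psmc1 in normal skin 4 (9.42), Psmd14 in normal skin 2 (8.60), Psme3 in normal skin 4 (7.80) and Psmf1 in normal skin 6 (6.09), all below the others.

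Probesets that name a member together with another gene were outside the gene values. In 2 of the 4, all tumours lay above all skins. The probeset of Psma5 and Gm8394 was higher by 0.75 and that of Psme2 and Psme2b-ps by 0.49 (exact two-sided permutation p = 0.0043 for each, the smallest that 5 against 6 arrays can give).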

How the results depend on the processing

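No called member changed sign under any alternative, and 0 members were lower in all of them. Of the 33 calls, 21 held under every scaling, 27 with each array left out and 17 under every alternative of the gene fit. Members higher numbered 27 to 34 with 1 array left out. They were 21 after quantile normalization (11.8% of all genes) and 21 with only double transgenic skin as reference (9.54% of all genes). For fits with 1 array left out, 75th percentile centring or the mean over probesets, the share of all genes called higher is not given here. The core count was 7 after quantile normalization, 14 with the mean over probesets and 10 to 11 with 1 array left out. Lid genes higher were 3 after quantile normalization, 5 with centring on the 75th percentile, 2 with double transgenic skin as reference or in the same-genotype contrast, and 5 to 8 with 1 array left out. Immune genes higher were 2 with that reference and in that contrast, and 1 to 2 with 1 array left out. The class of other activators and the inhibitor gave 1 under quantile normalization, 75th percentile centring, double transgenic reference, same-genotype contrast and without the 3 arrays high in hair keratins, and 1 to 2 with 1 array left out. Assembly genes higher were 2 with the double transgenic reference and 3 to 5 with 1 array left out.

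Same-numbered tumours and skins did not deviate together (correlations -0.08, -0.03, -0.14, -0.18 and 0.10, only number 5 correlating best with its own). Whether the numbers pair samples by animal or batch is not given, and these correlations cannot exclude it. With the number as a block 27 members, 5 lid genes and 1 other activator were higher, and the share of all genes in that fit is not given here.

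The contrast of Psmb10 and Psmb7 did not pass with quantile normalization (-0.57), double (-1.04) or single transgenic reference (-0.585), the replicate block (-0.73) or without the 3 arrays (-0.69), and ran from -0.84 to -0.62 with 1 array left out. That of Psmb9 and Psmb6 ran from -0.47 to -0.17. That of Psmb8 and Psmb5 was 0.55 with double transgenic reference, where 5 against 2 arrays cannot pass, 0.0489 with the replicate block, where 5 pairs cannot pass, and -0.33 to 0.0489 with 1 array left out. Partners higher were 8 after quantile normalization and 6 with the double transgenic reference, and 1 was lower with the mean over probesets or quantile normalization. Antigen presentation genes higher were 3 after quantile normalization, with single transgenic reference and without the 3 arrays, and 1 was lower with single transgenic reference.

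Uncalled members changed sign as follows. After quantile normalization Psma4 was -0.016, Psmb1 -0.11, Psmb9 -0.0698, Psmc3 -0.0058, Psmc6 -0.13 and Psmg4 -0.0054. With the mean over probesets Psme1 was 0.0435 and Psmg4 -0.0653. With double transgenic reference, and in the same-genotype contrast, Psmg4 was -0.14 and Psmc3ip -0.12. Psme1 was 0.0097 with the block and without normal skin 6, and Psmb11 0.0251 without keratoacanthoma 3. The cause of these changes was not tested.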
